A study of Mus musculus with 6 samples.

Results

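The 10 genes described here encode collagens that do not form the striated fibrils themselves: Col6a1, Col6a2, Col6a3, Col7a1, Col8a1, Col8a2, Col12a1, Col14a1, Col15a1 and Col16a1. They were taken by name, as the microfibrillar, anchoring, network, fibril-associated and basement membrane zone collagens of a fixed list, out of 55364 genes listed, and each of the 10 had counts. The cells were primary mouse lung fibroblasts (LFs) of 8 to 10 week old C57Bl6/J mice at passage 2 to 3, and all of them were kept in serum-free medium with TGF-β1 at 10 ng/ml for 24 h, which turns fibroblasts into contractile, matrix-producing myofibroblasts. There were 3 libraries of wild-type LFs and 3 libraries labelled TKS5 KO, so the comparison is of genotype under TGFβ, and the response to TGFβ itself is not analysed here. Tks5, the product of Sh3pxd2a, is a scaffold protein of podosomes, the actin-rich adhesions through which cells degrade and enter matrix. The labels give the second group as a knockout, whereas the study describes LFs of heterozygous Tks5+/- littermates, in which exon 11 of Sh3pxd2a is deleted from 1 allele in all tissues by Cre under the CMV promoter. The study calls all samples of the figure with these data biologically independent, but does not say whether the replicates came from separate animals or pools. The p-values therefore measure the spread between these libraries, part of which may be technical.

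Collagen VI chains assemble into beaded microfibrils that link cells to the surrounding matrix. Collagen VII forms the anchoring fibrils below epithelial basement membranes, and collagen VIII is a short-chain collagen of vessel walls and of Descemet's membrane in the eye. Collagens XII, XIV and XVI are FACITs, fibril-associated collagens with interrupted triple helices. They sit on the surface of fibrils or microfibrils, while collagen XV is a proteoglycan-bearing collagen that joins basement membranes to the fibrils next to them.

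Reads were counted at the end of transcripts (Quant-Seq), and the libraries held 1344507 to 2369882 counts. Counts are given per library, and levels as CPM, counts scaled to a common library size after TMM scaling. A gene was called where edgeR's quasi-likelihood test gave a Benjamini-Hochberg adjusted p under 0.05 over the 10346 genes tested and the fold change was at least 1.2, and every adjusted p below is from this test unless another is named. Sh3pxd2a (chromosome 19 of GRCm38, 47260174 to 47464401) had 113 ± 16.5 CPM (SD, n = 3) in wild-type LFs and 138 ± 11.1 (SD, n = 3) in those labelled TKS5 KO, with a log2 fold change of 0.29 (SE 0.20, adjusted p = 0.249). It was called higher once transcript length and GC content were corrected for, as described below, at a log2 fold change of 1.18 (adjusted p = 1.11e-04). The study reports reduced Tks5 mRNA by PCR in Tks5+/- LFs, which these counts did not show. The Sh3pxd2a reads come from the transcript end and not from exon 11, so they do not read the deletion itself. Why these measures differ was not tested. The labels could not be checked, and every direction below rests on them. The 10 lung fibroblast markers were counted in both groups, summing to 13041 to 14640 CPM in wild-type LFs and 17019 to 19400 in the libraries labelled TKS5 KO. Most of this was S100a4, at means of 9108 and 11420 CPM. The markers moved both ways, with Pdgfrb at means of 182 and 91.2 CPM and Thy1 at 48.5 and 188. Of the 10, 1 was called lower and 4 higher, beside 22.1% and 22.8% of all genes tested. The 16 macrophage markers summed to 485, 418 and 2579 CPM in wild-type replicates 1, 2 and 3, against 148 to 168 in the libraries labelled TKS5 KO, where Ptprc and Adgre1 had 0 counts. The 7 endothelial markers summed to 112 to 132 CPM and 45.6 to 60.4, with Pecam1 at 0 in the latter, and the 5 mesothelial markers to 20.9 to 25.1 and 3.58 to 12.1, with none of the 5 at 0 in all 3 libraries. The 8 epithelial markers summed to 22.5 to 58.2 CPM and 29.2 to 62.0, but the latter was mostly Ager, at a mean of 11.8 CPM in wild-type LFs and 42.3 in the libraries labelled TKS5 KO. Cdh1 had 17, 8 and 58 counts in wild-type LFs and 0 in each of the others, and Cldn4 had 23, 15 and 50 against 0, 3 and 0. Epcam and Cldn18 were at 0 in all libraries labelled TKS5 KO and had counts in wild-type LFs, and Sftpc, Sftpb and Scgb1a1 were at 0 in all 6. The part of these cells in the collagen values was not tested, and in bulk RNA fewer cells of a type and less RNA per cell cannot be told apart.

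The microfibrillar, anchoring and fibril-associated collagens were mostly lower in the libraries labelled TKS5 KO. All 10 were tested, and 8 fell: Col6a1, Col6a2, Col7a1, Col8a2, Col12a1, Col14a1, Col15a1 and Col16a1. Of all genes tested 22.1% were called lower, 22.8% higher and 44.9% in either direction. None of the 10 was called higher, and the count was also 0 at an unadjusted p under 0.05, with DESeq2 and with limma-voom. The median log2 fold change of the 10 was -1.35, beside -0.05 over all genes tested. Summed over the 10 genes, the CPM were 455, 463 and 400 in wild-type replicates 1, 2 and 3, against 235, 201 and 201 in the libraries labelled TKS5 KO. In 7 of the 10 genes every library labelled TKS5 KO lay below every wild-type library, as did 27.6% of all genes tested, while the groups overlapped for Col6a3, Col8a1 and Col14a1. In wild-type replicate 3, which held most of the macrophage marker counts, 6 of the 10 genes were at their lowest among wild-type LFs and 3 at their highest. All 10 were above the filter on low values in the 3 wild-type libraries. Of the libraries labelled TKS5 KO, Col8a2 and Col15a1 were above it in none, Col6a1 and Col14a1 in 1 and Col6a2 in 2, so that the filter alone favoured a fall in these 5 genes and the count of 8 is not read against the background.

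**Figure D1:**
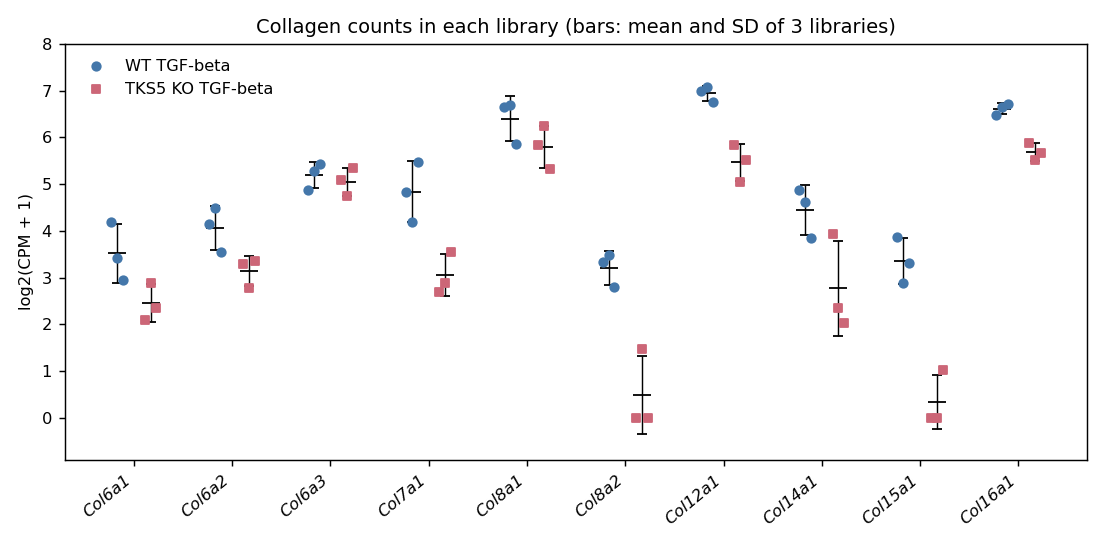
Each point is 1 library, with the 10 collagen genes on the x axis and log2(CPM + 1) on the y axis, and bars give the mean and SD of 3 libraries. The points of the libraries labelled TKS5 KO lie below all wild-type points for 7 genes, and those of Col8a2 and Col15a1 are at or near 0.

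**Figure D2:**
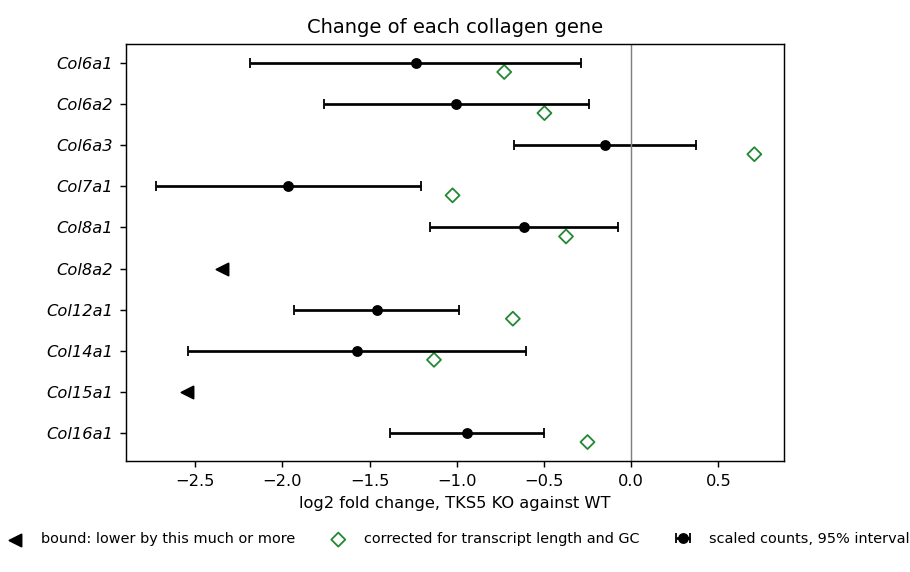
Log2 fold changes of the libraries labelled TKS5 KO against wild-type LFs on the x axis, with 95% intervals, for the 10 genes. Triangles mark Col8a2 and Col15a1, for which only a bound is drawn, and open diamonds give the values of the other 8 after correction for transcript length and GC content, where Col6a3 moves to the right of 0.

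Promoter sequences are shown for genes at both ends of this range: Col15a1 and Col8a2, with hardly any counts in the libraries labelled TKS5 KO, Col7a1, lower in each fit, and Col6a3, not called. Each runs 5′ to 3′ on the gene's strand from 250 bases before to 50 bases after the RefSeq start in GRCm38.p6. Capitals mark GC boxes (GGGCGG) and the Smad-binding element CAGACA, on either strand. RefSeq windows were found for 8 of the 10 genes, not for Col12a1 and Col14a1. The windows are chr4:47207762-47208061 (forward strand) for Col15a1, chr4:126286544-126286843 (forward) for Col8a2, chr9:108953336-108953635 (forward) for Col7a1 and chr1:90843922-90844221 (reverse) for Col6a3.
Col15a1: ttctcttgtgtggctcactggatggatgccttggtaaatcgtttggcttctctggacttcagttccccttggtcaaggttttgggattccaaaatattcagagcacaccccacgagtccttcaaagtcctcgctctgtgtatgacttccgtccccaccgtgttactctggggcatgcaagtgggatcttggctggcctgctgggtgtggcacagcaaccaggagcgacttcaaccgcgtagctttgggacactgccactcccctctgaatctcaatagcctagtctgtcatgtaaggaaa
Col8a2: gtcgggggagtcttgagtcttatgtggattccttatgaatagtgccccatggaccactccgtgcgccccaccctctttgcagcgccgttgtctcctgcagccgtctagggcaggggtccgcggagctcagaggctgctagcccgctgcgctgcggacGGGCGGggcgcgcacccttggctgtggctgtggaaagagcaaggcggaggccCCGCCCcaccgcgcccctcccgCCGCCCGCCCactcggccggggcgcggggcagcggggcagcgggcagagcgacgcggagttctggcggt
Col7a1: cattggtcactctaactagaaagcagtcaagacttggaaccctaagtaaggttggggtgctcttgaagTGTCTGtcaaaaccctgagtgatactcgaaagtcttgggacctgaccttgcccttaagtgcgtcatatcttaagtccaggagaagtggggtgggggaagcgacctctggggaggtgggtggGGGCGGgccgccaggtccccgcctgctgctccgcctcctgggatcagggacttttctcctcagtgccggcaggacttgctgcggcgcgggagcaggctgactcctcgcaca
Col6a3: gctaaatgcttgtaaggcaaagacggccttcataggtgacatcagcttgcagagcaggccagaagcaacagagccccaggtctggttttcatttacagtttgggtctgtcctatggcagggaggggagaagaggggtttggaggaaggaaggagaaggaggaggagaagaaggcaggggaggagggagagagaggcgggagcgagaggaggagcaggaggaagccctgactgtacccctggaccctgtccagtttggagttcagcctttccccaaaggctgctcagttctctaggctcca
The Col8a2 window held 4 GC boxes, of which 2 overlap in 1 run of capitals, and 71.7% of its bases were G or C. The Col7a1 window held 1 GC box and 1 CAGACA, while the Col15a1 window, 52.3% G or C, and the Col6a3 window held neither. The annotated Col15a1 start of the gene table lies 100 bases past the end of its RefSeq window. A GC box was found for 5 of the 8 genes (Col6a2, Col7a1, Col8a1, Col8a2 and Col16a1), beside 35.7% of all 32851 RefSeq windows, and CAGACA for 2 of 8 (Col7a1 and Col8a1), beside 21.0%. The AP-1 site TGACTCA was found for Col6a1 alone, beside 5.20% of all windows, and TATAAA for 0 of 8, beside 13.6%. A link between these motifs and the changes in counts was not tested.

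Of the collagen VI microfibril, the α1 and α2 chains were lower in the libraries labelled TKS5 KO, while no change of the α3 chain was called. Col6a1 (chromosome 10, 76708792 to 76726168, reverse strand) had 27, 18 and 18 counts in wild-type replicates 1, 2 and 3, against 6, 11 and 8 in the libraries labelled TKS5 KO. The groups did not overlap but came close, at 6.67 CPM in the lowest wild-type library and 6.44 in the highest of the others. From 11.2 ± 5.53 CPM (SD, n = 3) in wild-type LFs the level fell to 4.61 ± 1.63 (SD, n = 3), which is a log2 change of -1.23 (SE 0.46, adjusted p = 0.032). Col6a2 lies 85161 bases from Col6a1 on the same strand (chromosome 10, 76595762 to 76623630). It had 26, 40 and 29 counts in wild-type LFs, against 16, 10 and 18 in the libraries labelled TKS5 KO, and fell from 16.3 ± 5.34 CPM (SD, n = 3) to 7.95 ± 1.83 (SD, n = 3), or a log2 change of -1.002 (SE 0.37, adjusted p = 0.0299). These were the least secure of the 8 falls. Too few libraries labelled TKS5 KO were above the filter for either gene to pass without wild-type LFs, so both adjusted p values are descriptions. Col6a1 was not called without wild-type replicate 1 (adjusted p = 0.223), without TKS5 KO replicate 1 (0.125) or without TKS5 KO replicate 3 (0.0984), and DESeq2 gave an adjusted p of 0.0682. Col6a2 was not called without wild-type replicate 1 (adjusted p = 0.0666) or 2 (0.182), nor without TKS5 KO replicate 1 (0.0576) or 2 (0.118), and DESeq2 gave an adjusted p of 0.0672.

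Col6a3 encodes the longest of these chains, which carries many von Willebrand factor A domains and ends in the endotrophin peptide. It lies on chromosome 1 (90765923 to 90843971, reverse strand) and had 44, 71 and 113 counts in wild-type LFs, against 60, 44 and 77 in the libraries labelled TKS5 KO. The groups overlapped, at 36.1 ± 6.99 CPM (SD, n = 3) in wild-type LFs and 32.7 ± 6.83 (SD, n = 3) in the others. The log2 fold change was -0.15, with a 95% interval from -0.67 to 0.37 (adjusted p = 0.655). That interval overlapped those of Col6a1 (-2.18 to -0.29) and Col6a2 (-1.76 to -0.24), but such an overlap does not test a difference between the chains. The ratios within each library, given below, did not show one (exact permutation p = 0.2 for Col6a1 and for Col6a2 against Col6a3). Without TKS5 KO replicate 2 the Col6a3 log2 fold change was 0.025, so the sign changed with 1 library left out. Exact two-sided permutation tests on the CPM gave p = 0.1 for Col6a1 and Col6a2, the smallest value that 3 against 3 libraries can reach, and 0.6 for Col6a3.

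Col7a1, the gene of the anchoring fibril collagen, was lower in each fit that tested it. It lies on chromosome 9 (108953586 to 108984875, forward strand) and had 43, 32 and 118 counts in wild-type replicates 1, 2 and 3, against 10, 11 and 21 in the libraries labelled TKS5 KO. Wild-type replicate 3 was the highest of all at 43.8 CPM, and the lowest wild-type library, at 17.1, was still above the highest of the libraries labelled TKS5 KO, at 10.7. The mean fell from 29.5 ± 13.4 CPM (SD, n = 3) to 7.56 ± 2.80 (SD, n = 3), a log2 change of -1.97 (SE 0.37, adjusted p = 1.66e-04, exact permutation p = 0.1). Without wild-type replicate 3 the log2 fold change was -1.54, and the gene was called in each of the 6 fits that left out a library. Epithelial cells also make collagen VII, and the part of the epithelial markers given above in its counts was not tested.

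The collagen VIII genes differed in size of change. Col8a1 (chromosome 16, 57624258 to 57754737, reverse strand) had 155, 193 and 153 counts in wild-type LFs, against 102, 127 and 76 in the libraries labelled TKS5 KO. Wild-type replicate 3, at 56.7 CPM, lay within the range of the libraries labelled TKS5 KO, which reached 74.3. The means were 86.6 ± 25.9 CPM (SD, n = 3) and 56.4 ± 17.7 (SD, n = 3), and the log2 fold change of -0.61 (SE 0.26, 95% interval -1.15 to -0.07) missed the threshold at an adjusted p of 0.0594, with an exact permutation p of 0.2. It was called without wild-type replicate 3 (adjusted p = 0.00884) and without TKS5 KO replicate 2 (0.0256). Col8a2 (chromosome 4, 126286793 to 126314330, forward strand) had 14, 19 and 16 counts in wild-type LFs, against 0, 3 and 0 in the libraries labelled TKS5 KO. With each of the latter set to 3 counts, the gene was 5.09-fold lower than in wild-type LFs at 8.37 ± 2.19 CPM (SD, n = 3), or at least 4.54-fold with any wild-type library left out. This bound is not a confidence limit. The fitted 95% interval ran up to a log2 fold change of -2.22, where the bound is -2.35. The adjusted p of 2.78e-04 for Col8a2 is a description, because the gene passed the filter only through wild-type LFs.

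The FACIT genes Col12a1, Col14a1 and Col16a1 fell. Col12a1, whose product binds fibrils of tissues under load, lies on chromosome 9 (79598991 to 79718831, reverse strand). It had 196, 250 and 291 counts in wild-type LFs, against 102, 55 and 88 in the libraries labelled TKS5 KO, or 108 to 134 CPM against 32.2 to 56.0, so that the groups stood well apart. The mean went from 123 ± 13.3 CPM (SD, n = 3) to 44.4 ± 11.9 (SD, n = 3), which is a log2 change of -1.46 (SE 0.23, adjusted p = 2.38e-05, exact permutation p = 0.1). It ranged from -1.61 to -1.25 over the fits without 1 library, each of which called it.

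Col14a1, a FACIT close in structure to collagen XII and a marker of adventitial and matrix fibroblasts, lies on chromosome 15 (55307750 to 55520803, forward strand). It had 44, 44 and 36 counts in wild-type LFs, against 26, 7 and 6 in the libraries labelled TKS5 KO. TKS5 KO replicate 1, at 14.3 CPM, stood above wild-type replicate 3, at 13.3, whereas the other libraries labelled TKS5 KO were at 4.10 and 3.07. The level fell from 21.7 ± 7.65 CPM (SD, n = 3) to 7.14 ± 6.19 (SD, n = 3), or a log2 change of -1.57 (SE 0.46, adjusted p = 0.0101), although the exact permutation p was 0.2. Without TKS5 KO replicate 1 the log2 fold change was -2.51, and without TKS5 KO replicate 2 the gene was not called (adjusted p = 0.0692). Col14a1 too could not pass the filter without wild-type LFs, so its adjusted p of 0.0101 is a description.

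Col16a1, a FACIT found with fibrillin microfibrils and thin fibrils, lies on chromosome 4 (130047840 to 130099283, forward strand). It had 137, 186 and 282 counts in wild-type LFs, against 106, 76 and 97 in the libraries labelled TKS5 KO. The spread within each group was narrow, at 88.2 to 105 CPM and 44.5 to 58.2, with a clear gap between them. The level fell from 97.4 ± 8.39 CPM (SD, n = 3) to 50.8 ± 6.92 (SD, n = 3), a log2 change of -0.94 (SE 0.21, adjusted p = 0.00104, exact permutation p = 0.1), and was called in each of the 6 fits without 1 library.

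Col15a1, the basement membrane zone collagen whose C-terminal fragment is the endostatin-like restin, was nearly without counts in the libraries labelled TKS5 KO. It lies on chromosome 4 (47208161 to 47313167, forward strand) and had 21, 12 and 24 counts in wild-type LFs, against 0, 0 and 2 in the libraries labelled TKS5 KO. With each of the latter set to 3 counts it was 5.84-fold lower than in wild-type LFs at 9.61 ± 3.60 CPM (SD, n = 3), or at least 4.65-fold with any wild-type library left out. It too passed the filter only through wild-type LFs, so its adjusted p of 4.70e-05 is a description. Endothelial cells also make collagen XV, and the endothelial markers given above summed to less in the same libraries than in any wild-type library. Their part in the Col15a1 counts was not tested.

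Ratios of counts within a library do not depend on the scaling, and they were compared for 5 pairs of chains or related genes. Their level also depends on where reads fall in each gene, so only the difference between groups is read. The log2 ratio of Col8a1 to Col8a2 was 3.42, 3.31 and 3.22 in wild-type replicates 1, 2 and 3, against 7.68, 5.19 and 7.26 in the libraries labelled TKS5 KO. The groups stood apart, also with Col8a2 set to 3 counts, at 4.45 to 5.19 in the libraries labelled TKS5 KO and a difference of 1.52. The exact two-sided permutation p was 0.1, the smallest possible, and 0.333 after Benjamini-Hochberg adjustment over the 5 pairs, so that no pair could pass. The log2 ratio of Col6a1 to Col6a2 was -0.58 ± 0.60 (SD, n = 3) in wild-type LFs and -0.78 ± 0.80 (SD, n = 3) in those labelled TKS5 KO (exact permutation p = 0.8). Against Col6a3, Col6a1 was lower by a log2 difference of -1.03 and Col6a2 by -0.84, and in both the groups overlapped (exact permutation p = 0.2 each, adjusted p = 0.333). The log2 ratio of Col12a1 to Col14a1 was 2.54 ± 0.43 (SD, n = 3) and 2.87 ± 0.91 (SD, n = 3), and its difference of 0.32 was within the spread of the libraries (exact permutation p = 0.7).

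**Figure D3:**
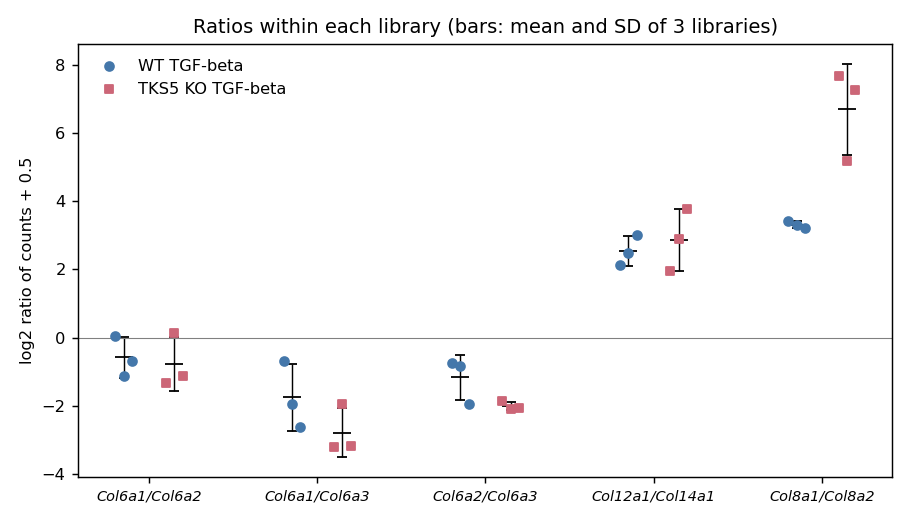
Log2 ratios of counts + 0.5 on the y axis for 5 gene pairs on the x axis, with 1 point per library and bars for the mean and SD of 3 libraries. For Col8a1 to Col8a2 the libraries labelled TKS5 KO, at 5.19 and above, lie over the wild-type libraries at 3.22 to 3.42, and the other 4 pairs overlap.

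These collagens have long transcripts, and the fold changes of all genes moved with transcript length. The longest transcript of each of the 10 genes measured 4100 to 11511 bases, against a median of 3204 over the genes tested. Over 10339 genes Spearman's rho of log2 fold change with length was -0.40, a description of genes that share the same 6 libraries. Correcting each library for its trend with length and GC content left 5 of the 10 genes called lower (Col7a1, Col8a2, Col12a1, Col14a1 and Col15a1) and 1 higher (Col6a3), beside 16.8% and 19.7% of all genes tested. The median log2 fold change of the 10 was then -0.70, beside 0.02 over all genes. Col12a1 moved to -0.68 (adjusted p = 0.0133), Col7a1 to -1.02 (adjusted p = 0.0463) and Col14a1 to -1.13 (adjusted p = 0.0422). Col8a2 and Col15a1 stayed called (adjusted p = 0.00227 and 3.16e-04). Because Col8a2, Col14a1 and Col15a1 could not pass the filter without wild-type LFs, their corrected adjusted p values are descriptions. For the same reason the count of 5 genes called lower is not read against the background. Col16a1 moved to -0.25 (adjusted p = 0.353), Col6a1 to -0.73 (adjusted p = 0.23) and Col6a2 to -0.50 (adjusted p = 0.296), and none of these was called. Col6a3, whose transcript is among the longest, changed sign to 0.71 (adjusted p = 0.0326). Whether length itself or something that goes with it moved the counts was not tested.

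**Figure D4:**
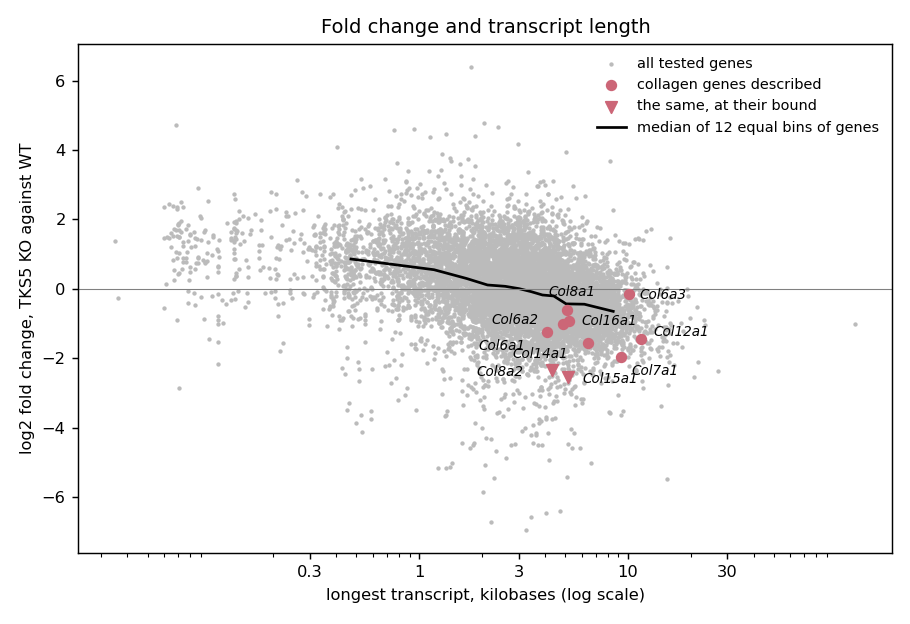
Log2 fold change (y axis) against the longest transcript in kilobases (x axis, log scale) for the tested genes, with the 10 collagen genes in colour and Col8a2 and Col15a1 at their bound. The line through the medians of 12 bins of genes slopes down, and of the 10 collagen genes Col6a3 lies nearest to 0.

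The other collagens were called in both directions. Of 11 fibrillar collagen genes 7 were tested, with a median log2 fold change of 0.16. Of these 1 fell and 1 rose, where 22.1% and 22.8% of all genes did. After the length and GC correction 1 was called lower and 4 higher (Col1a1 at 1.07, Col1a2 at 0.91, Col3a1 at 1.08 and Col11a1 at 0.70), beside 16.8% and 19.7% of all genes. Their median was then 0.70. Col5a3, a minor chain of collagen V, fell from 105 ± 19.5 CPM (SD, n = 3) in wild-type LFs to 11.8 ± 2.55 (SD, n = 3), which is a log2 change of -3.17 (adjusted p = 6.67e-09). Col3a1, the collagen III chain, rose by 0.64 (adjusted p = 0.0451) but was called in only 2 of the 6 fits without 1 library. Of 6 type IV collagen genes, which form the basement membrane network, 3 were tested and 2 fell, where 22.1% of all genes did. These were Col4a2 with a log2 fold change of -1.82 and Col4a1 with -1.32. Of 17 other non-fibrillar collagen genes 3 were tested, too few to read against these shares. Col6a6, a collagen VI chain that can stand in for α3, fell from 22.2 ± 4.38 CPM (SD, n = 3) to 9.25 ± 3.20 (SD, n = 3), or a log2 change of -1.26 (adjusted p = 0.0039), and was not called after the length and GC correction (-0.54, adjusted p = 0.211). Col6a6 could not pass the filter without wild-type LFs, so its adjusted p of 0.0039 is a description. Col9a3, a chain of the cartilage FACIT collagen IX, rose by 1.86 (adjusted p = 5.62e-04). It had 7, 12 and 10 counts in wild-type LFs and could not pass the filter without the libraries labelled TKS5 KO, so its adjusted p is a description.

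**Figure D5:**
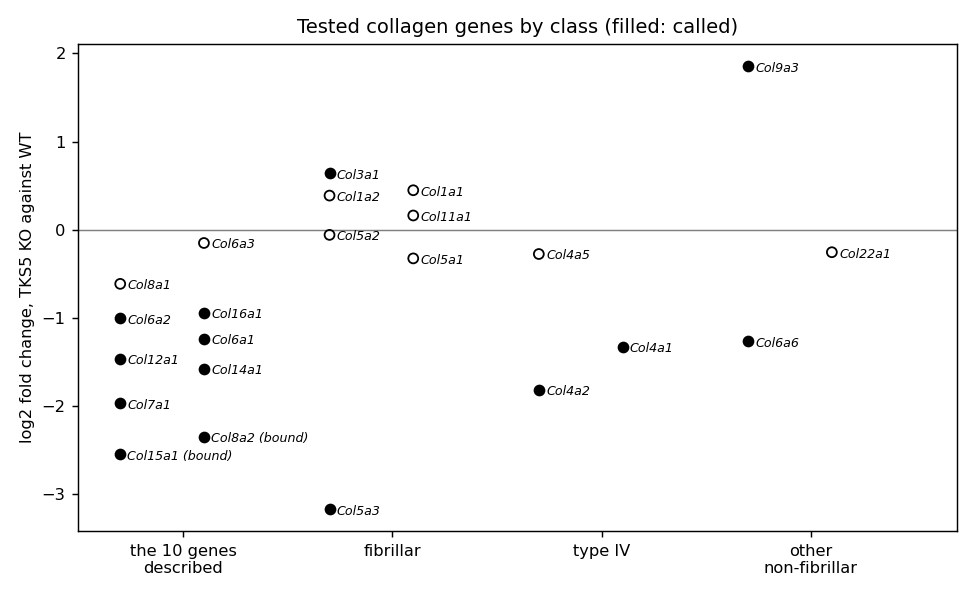
Log2 fold changes (y axis) of the tested collagen genes by class (x axis), 1 point per gene, filled where called, with Col8a2 and Col15a1 drawn at their bound. All 10 genes described lie below 0, whereas the 7 fibrillar collagen genes lie on both sides of it.

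Several partners that hold these collagens to cells and matrix were lower. Of 26 receptor and binding partner genes 22 were tested, 10 fell and 1 rose, where 22.1% and 22.8% of all genes did, and their median log2 fold change was -0.69. Several of the genes that fell, Itga11 among them, could not pass the filter on low values without wild-type LFs. The filter alone favoured a fall in those genes, so the count of 10 is not read against the background. Bgn, the gene of biglycan, which binds collagen VI, fell from 4805 ± 659 CPM (SD, n = 3) to 1180 ± 266 (SD, n = 3), a log2 change of -2.03 (adjusted p = 3.64e-07). Itga11, the collagen-binding integrin α11 of fibroblasts, fell from 47.3 ± 14.5 CPM (SD, n = 3) to 5.73 ± 2.49 (SD, n = 3), which is a log2 change of -3.01 (adjusted p = 4.57e-07). Because Itga11 could not pass the filter without wild-type LFs, its adjusted p is a description. Fbn1, the fibrillin-1 gene, fell by 1.86 on the log2 scale, from 518 ± 51.6 CPM (SD, n = 3) to 143 ± 33.2 (SD, n = 3, adjusted p = 6.99e-07). Nid2, a basement membrane nidogen, rose by 1.16 (adjusted p = 1.99e-04). With the length and GC correction 11 of the 22 were called lower and 2 higher, beside 16.8% and 19.7% of all genes. The same limit of the filter holds for this count of lower genes.

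Genes that modify, fold, export and cleave collagen chains were called in both directions. Of 26 genes 24 were tested, 8 fell and 3 rose, where 22.1% and 22.8% of all genes did, and their median log2 fold change was -0.47. P4ha3, a catalytic subunit of prolyl 4-hydroxylase, fell by 1.74 on the log2 scale (adjusted p = 4.03e-06), whereas P4ha1 and P4ha2, subunits of the same kind, rose by 0.62 each (adjusted p = 0.0249 and 0.0236). Bmp1, the procollagen C-proteinase, which also cleaves procollagen VII, fell from 178 ± 3.54 CPM (SD, n = 3) to 66.3 ± 11.8 (SD, n = 3), or a log2 change of -1.42 (adjusted p = 1.17e-05). Fkbp10, a collagen foldase of the endoplasmic reticulum, fell by 0.96 (adjusted p = 0.00128), and Ppib, the gene of cyclophilin B in the prolyl 3-hydroxylation complex, rose by 0.83 (adjusted p = 0.00726). P4ha1 and P4ha2 were each called in only 3 of the 6 fits without 1 library, and after the length and GC correction 6 of the 24 were called lower and 4 higher, beside 16.8% and 19.7% of all genes.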

How the data were processed

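RNA of TGFβ-treated LFs was measured in 6 libraries. Raw counts of reads per gene were deposited by the authors, who used Trim Galore for trimming, HISAT2 followed by Bowtie2 for alignment to GRCm38, and metaseqR2 for counting on UTR regions of at least 300 bases with 50 flanking bases, summed per gene. The normalized values, which the authors made with EDASeq and rounded, were used as a score in 1 alternative only, as all 6 columns hold the same sorted values. The strand setting and EDASeq options are not given in the sources used here. Of 55364 genes 55104 were matched to GENCODE symbols, coordinates and transcript lengths, and no other gene overlaps the counted ends of the 10.

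Counts were filtered with filterByExpr (4.89 CPM in at least 3 libraries), TMM-scaled and tested with edgeR 4.0.16 in R 4.3.3 (robust quasi-likelihood F test), with the genotype as the only term. The test was tried on simulated data first. Exact two-sided permutation tests used the CPM. A gene with at most 3 counts in every library of a group was given a bound, with each of these libraries set to 3 counts. Such a bound is not a confidence limit. SE and intervals come from the fit, and the depth limits genes of few counts such as Col8a2 and Col15a1. Alternatives were DESeq2 1.42.0, limma-voom (limma 3.58.1), other scalings, filters and thresholds, loess corrections (span 0.5) for transcript length and GC content, a block for replicate number, and fits without 1 library. Motifs were searched as exact letters on both strands.

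The 10 genes and the lists were chosen with earlier results of these data known. Named are Sh3pxd2a, the 10 genes and, per list, up to 3 called genes of smallest adjusted p in each direction. The corrected fibrillar collagens and all marker genes named were chosen after their values were seen. The 7 smooth muscle and pericyte markers summed to 4795 to 5716 CPM in wild-type LFs and 6242 to 7122 in the libraries labelled TKS5 KO. Most of this was Acta2, at means of 4610 and 4283 CPM, and Tagln, at 478 and 1891. Myh11, Cspg4, Notch3 and Rgs5 had lower means in the latter. Of the 6 tested, 3 were called lower and 2 higher, beside 22.1% and 22.8% of all genes tested. Cspg4 and Notch3 passed the filter only through wild-type LFs, so the count of lower markers is not read against the background. The study's combination of 9 tests was not run. Tables and plots were made with Python 3.11.15, pandas 2.3.3, numpy 2.4.6, scipy 1.17.1 and matplotlib 3.10.9.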

Additional observations from a re-analysis of the deposited data

How the results depend on the processing

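Of 196 values of single collagen genes under the alternatives, 161 kept their direction and side of the threshold, 24 were no longer called, 7 became called and 4 changed sign. Col7a1, Col8a2, Col12a1 and Col15a1 were called in every alternative that tested them, although Col8a2 and Col15a1 passed the filter only through wild-type LFs. The sign changed for Col6a3, to 0.52 with length correction, 0.71 with length and GC correction and 0.72 with the replicate block added to it, and over the fits without 1 library it ran from -0.29 to 0.025. Scaling by library totals alone moved the median of all genes from -0.05 to -0.47 and gave 3944 lower and 1362 higher calls, a median of -1.77 for the 10 genes and -0.13 (adjusted p = 0.608) for Sh3pxd2a. Sh3pxd2a was called higher with length correction (adjusted p = 5.19e-04), with length and GC correction (1.18, adjusted p = 1.11e-04) and with the block added to that (1.17, adjusted p = 4.97e-05). Requiring at least 10 counts in every library left 6 of the 10 genes tested, of which 5 fell, with a median of -1.02. The median was -0.87 with length correction and -0.70 with length and GC correction, which called 5 genes lower and 1 higher. Scaling by library totals alone leaves out the TMM factors. These were 1.17, 1.15 and 1.16 in wild-type replicates 1, 2 and 3, against 0.932, 0.817 and 0.846 in those labelled TKS5 KO. Why the factors differed between the groups was not tested. The cause of the other shifts was not tested beyond the smaller set of genes left by the filter. Without 1 library, 6 to 9 of the 10 genes were called lower, their median ran from -1.54 to -1.14, and 3853 to 4595 genes were called in all. The difference in log2 ratio over these fits ran from -0.65 to 0.12 for Col6a1 to Col6a2 and from -0.12 to 0.78 for Col12a1 to Col14a1. The replicate numbers were not found to pair the samples: deviations of same-numbered libraries correlated at -0.00101, -0.0635 and 0.0817, and 2 of 6 libraries correlated best with their own number. With the block 9 of the 10 genes and 4668 genes in all were called, Col8a1 being the gene gained (adjusted p = 0.0214), and with the block, length and GC together 5 were lower and 1 higher, at a median of -0.70.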
